A study of Mus musculus with 6 samples.

Results

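Hyperpolarization-activated, cyclic nucleotide-gated (HCN) channels carry the pacemaker current, and 3 of their subunit genes were examined together with Pex5l, the gene of the auxiliary subunit TRIP8b. The members, Hcn2, Hcn3, Hcn4 and Pex5l, were taken by gene symbol and are 4 of the 37620 genes in the deposited table. RNA came from the pre-limbic cortex (PLc), which lies medially in the prefrontal cortex, of male C57Bl/6 mice aged 9 weeks. One group had 5 daily intraperitoneal injections of ketamine at 30 mg/kg, the control group had saline on the same schedule, and brains were taken 2 days after the last injection. There were 3 mice per group with 1 library each, numbered 1, 6 and 10 for saline and 3, 5 and 9 for ketamine.

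HCN channels open when the membrane becomes more negative and pass an inward current that pulls it back towards firing threshold. Cyclic AMP (cAMP) binds to their intracellular end and makes them easier to open, so that receptors acting through cAMP can tune how dendrites sum their inputs. HCN2 is found across the brain and also in oligodendrocytes, HCN3 responds little to cAMP, and HCN4, the main subunit of the sinoatrial node of the heart, responds strongly. TRIP8b binds HCN subunits, steers their traffic to the cell surface and opposes the effect of cAMP.

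The coding sequences of the 3 channel genes show what they share and where reads can be told apart. The stretch around the ion pore is given for each, from GENCODE M1 transcripts on mm9, with the 5 codons of the selectivity filter, which hold its glycine-tyrosine-glycine core, in capitals. The stretches lie within single exons, at chr10:79191662-79191748 on the plus strand for Hcn2, chr3:88954892-88954978 on the minus strand for Hcn3 and chr9:58703356-58703442 on the plus strand for Hcn4.
Hcn2 pore: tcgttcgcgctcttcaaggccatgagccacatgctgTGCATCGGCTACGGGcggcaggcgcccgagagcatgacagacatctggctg
Hcn3 pore: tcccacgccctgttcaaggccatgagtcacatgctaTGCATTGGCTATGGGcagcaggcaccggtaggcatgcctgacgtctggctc
Hcn4 pore: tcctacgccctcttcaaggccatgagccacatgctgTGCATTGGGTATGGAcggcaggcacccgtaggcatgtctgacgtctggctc

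Over these 87 bases, Hcn3 and Hcn4 differed at 9 positions, Hcn2 and Hcn4 at 15, and Hcn2 and Hcn3 at 19. The longest run of identical bases between the transcripts of any pair of these genes was 32 or 33 bases, shorter than the 100 base reads that were counted. The end of the coding sequence, ahead of the stop codon, is shown because the last residues of HCN subunits are a docking site of TRIP8b. The last 3 codons are in capitals, at chr10:79198253-79198282 for Hcn2, chr3:88951524-88951553 for Hcn3 and chr9:58708538-58708567 for Hcn4.
Hcn2 end: tctgcgcgctcgcgcctctctTCCAACTTG
Hcn3 end: cccagaggtccccaaatttctGCCAACATG
Hcn4 end: ccagtacgctccaaactgccgTCTAATTTA

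Hcn2 and Hcn4 both ended in codons for serine, asparagine and leucine, while Hcn3 ended in codons for alanine, asparagine and methionine.

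The libraries held between 26273436 and 32643726 reads counted to genes, as recovered from the deposited values, and marker lists set some libraries apart. A list's score is the mean of log2(normalized count + 1) over its tested genes, set against the saline average. Genes of cortical excitatory neurons were present in every mouse, with a summed level between 96678 and 190713 normalized counts, and all 10 were detected in each library. Oligodendrocyte markers summed to 408227 normalized counts in saline mouse 10, against 60867 and 47787 in saline mice 1 and 6 and between 113027 and 173898 in ketamine mice. Striatal markers scored 3.27 in ketamine mouse 3, 2.20 in mouse 5 and 0.03 in mouse 9, and olfactory bulb markers scored 4.43 in the last of these, where no saline mouse exceeded 0.65. No marker of the striatal or oligodendrocyte list was at 0 in any mouse.

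Compared per kilobase of exon, the level of Hcn2 was of the order of that of Pex5l, and those of Hcn3 and Hcn4 were far lower. In saline mice the median was 1158 normalized counts per kilobase for Hcn2 (range 1149 to 1766), 1159 for Pex5l (886 to 1389), 125 for Hcn3 (89.9 to 137) and 32.5 for Hcn4 (17.6 to 37.6). In ketamine mice it was 1304 for Hcn2 (1160 to 1459), 770.04 for Pex5l (501 to 906), 153 for Hcn3 (149.9 to 159) and 56.5 for Hcn4 (20.8 to 68.0). Hcn2 and Pex5l overlapped in saline mice and did not overlap in ketamine mice. In both groups all values of Hcn3 lay below those of Hcn2 and Pex5l, and all values of Hcn4 lay below those of Hcn3. By mean level per kilobase over the 6 mice, Hcn2 stood at percentile 92.6 of the genes tested, Pex5l at 89.0, Hcn3 at 46.2 and Hcn4 at 23.8.

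The groups were compared by a two-sided limma fit to log2(normalized count + 1). A mean of 10 or more normalized counts was required, which left 16127 genes, all 4 members among them. No member was called at an adjusted p under 0.05, by limma, by edgeR's quasi-likelihood test or by DESeq2. The same threshold called 0 genes in all with limma (0.0% of those tested) and 0 with edgeR (0.0%), and 182 with DESeq2 (1.13%). At an unadjusted p under 0.05, limma marked 937 genes (5.81%) and edgeR 1007, and among the members only Pex5l was marked by either. The margin was narrow, since Hcn3 had an unadjusted p of 0.05002 by edgeR and 0.0457 by limma with TMM library scaling. For Pex5l the unadjusted p was 0.0501 by limma without its trend option. The values are from whole tissue, in which fewer cells of a type and less RNA per cell cannot be told apart.

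Pex5l, which encodes TRIP8b (ENSMUSG00000027674, minus strand of chromosome 3 of mm9, 32848553 to 33042169), had the lower values in ketamine mice. Normalized counts were 5839 in saline mouse 1, 4466 in mouse 6 and 6997 in mouse 10, and after ketamine 3880 in mouse 3, 4567 in mouse 5 and 2526 in mouse 9. The groups overlapped by a narrow margin, since ketamine mouse 5 was just above saline mouse 6. The group means were 3658 ± 1039 with ketamine and 5767 ± 1267 with saline (SD, n = 3 each). For Pex5l the log2 fold change was -0.68 (standard error 0.260, 95% confidence interval -1.29 to -0.06, unadjusted p = 0.0345, adjusted p = 0.797 by limma), and the exact permutation p was 0.2. DESeq2 gave -0.65 with an adjusted p of 0.506. Ketamine mouse 9 had the lowest value, and without it the log2 fold change was -0.43 (adjusted p = 0.539 by limma). Cortical excitatory neuron markers were also low in ketamine mice 9 and 3, with scores of -0.58 in each, beside -0.04 in ketamine mouse 5. Of the 10 genes in this list, 8 were lower and 2 higher. The higher ones, Bcl11b and Foxp2, were named after their values were seen and had log2 fold changes of 0.78 and 0.92. Both were highest in ketamine mouse 3, so they lift the ketamine scores, most in that mouse. The saline scores of the list were 0.18, 0.09 and -0.26 in mice 1, 6 and 10. Pex5l did not follow this order, since saline mouse 10 had the highest Pex5l at a lower score than ketamine mouse 5. Olfactory bulb markers were highest in ketamine mouse 9 (4.43), with 2.45 in mouse 3 and 1.61 in mouse 5. The part of excitatory neurons or olfactory bulb tissue in the Pex5l values was not tested.

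**Figure D1:**
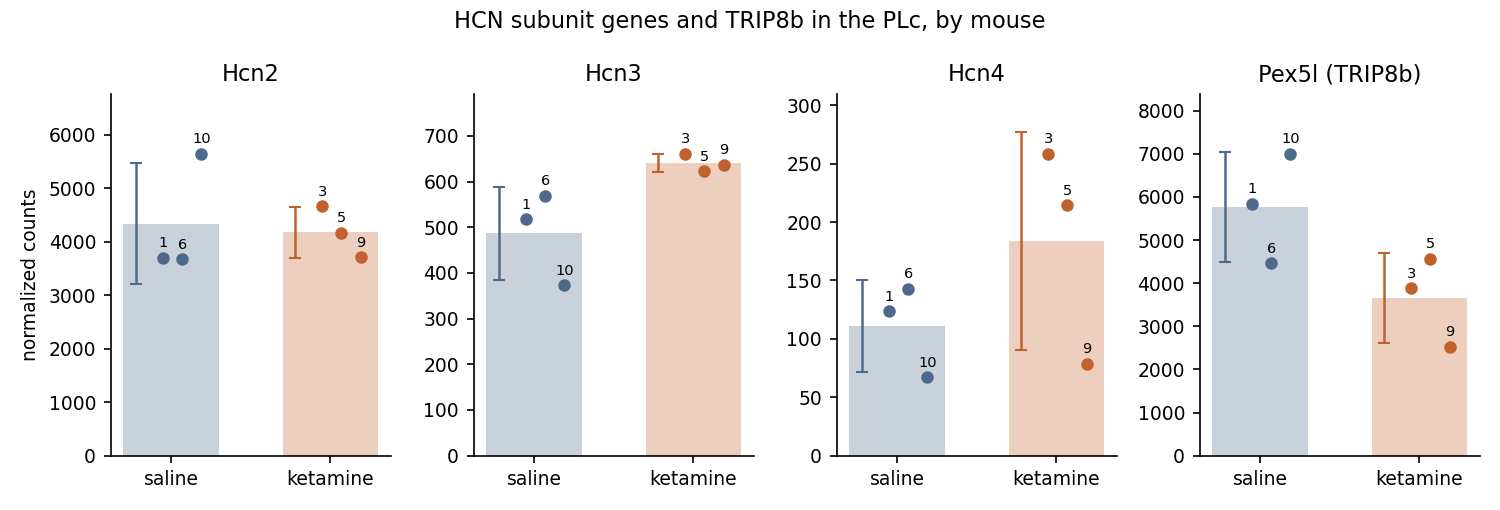
Normalized counts (y axis, from 0) of Hcn2, Hcn3, Hcn4 and Pex5l in saline and ketamine mice; points are mice with their numbers, bars are means and error bars are SD (n = 3 each). The 3 ketamine mice lie between 623 and 661 for Hcn3, above all saline mice, while the groups overlap for Hcn2, Hcn4 and Pex5l.

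Hcn2 (ENSMUSG00000020331, plus strand of chromosome 10, 79179379 to 79198853) showed no difference between the groups beyond their spread. Saline mouse 1 showed 3698 normalized counts, mouse 6 showed 3672 and mouse 10 showed 5643, beside 4660, 4168 and 3706 for mice 3, 5 and 9 after ketamine. Saline mouse 10 was the highest, and the ketamine mice lay between it and the other saline mice. The log2 fold change was -0.03 (standard error 0.20, 95% confidence interval -0.50 to 0.44, adjusted p = 0.999 by limma), an interval that spans folds from 0.707 to 1.36. The sign turned without saline mouse 10 (0.17) and without ketamine mouse 9 (0.05). Relative to the saline mean, log2 Hcn2 was 0.41 in saline mouse 10 and 0.13 in ketamine mouse 3, the mice with the highest oligodendrocyte scores (1.88 and 0.69), and -0.20 and -0.21 in saline mice 1 and 6, those with the lowest scores (-0.77 and -1.11). Ketamine mouse 9 did not follow this order, with a log2 Hcn2 of -0.20 at an oligodendrocyte score of 0.17. Pex5l was also highest in saline mouse 10, but was low in ketamine mouse 3. The part of oligodendrocytes, astrocytes or thalamic tissue in these values was not tested.

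Hcn3 (ENSMUSG00000028051, minus strand of chromosome 3, 88949996 to 88964118) was the only member whose groups did not overlap. Its normalized counts in saline mice 1, 6 and 10 were 518, 569 and 373, and those of mice 3, 5 and 9 after ketamine were 661, 623 and 637. Every ketamine mouse was thus above every saline mouse, as were 5.69% of the genes tested, while 4.66% were below in the same sense. The ketamine mice were close to each other, at 640.2 ± 19.1 normalized counts against 487 ± 102 in saline mice (SD, n = 3 each). On the log2 scale Hcn3 differed by 0.42 (standard error 0.182, 95% confidence interval -0.01 to 0.84, unadjusted p = 0.0554, adjusted p = 0.868 by limma), and the exact permutation p was 0.1, the smallest that 3 mice against 3 allow. Saline mouse 10, the lowest, carried much of the difference, and without it the log2 fold change was 0.24 (adjusted p = 0.634 by limma). That mouse also had the highest oligodendrocyte score (1.88). Ketamine mice 3, 5 and 9, at 0.69, 0.01 and 0.17, scored above saline mice 1 and 6 (-0.77 and -1.11) and had more Hcn3. The part of oligodendrocytes in the Hcn3 values was not tested. Hcn3 shares 711 exon bases with Pklr on the opposite strand, which had at most 3.92 normalized counts. The strand setting of the counting is not given, so how reads on these shared bases were counted is not known.

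Hcn4 (ENSMUSG00000032338, plus strand of chromosome 9, 58671319 to 58708762) differed more among the ketamine mice than between the groups. After saline, mice 1, 6 and 10 gave 124, 143 and 67.0 normalized counts. After ketamine, mice 3, 5 and 9 gave 258, 214 and 78.9. Ketamine mice 3 and 5 were above every saline mouse, and ketamine mouse 9 was below saline mice 1 and 6. The log2 fold change was 0.62 (standard error 0.490, 95% confidence interval -0.53 to 1.78, adjusted p = 0.999 by limma, exact permutation p = 0.4). It was 1.15 without ketamine mouse 9, 0.30 without ketamine mouse 3 and 0.30 without saline mouse 10 (adjusted p by limma 0.381, 0.999 and 0.888 in that order). The high mice were those with raised striatal marker scores, 3.27 in mouse 3 and 2.20 in mouse 5. Striatal scores were 0.03 in ketamine mouse 9 and -0.07, -0.03 and 0.10 in saline mice 1, 6 and 10. Among these other mice Hcn4 did not follow the striatal score, since saline mouse 10 had the highest score and the lowest Hcn4. The part of striatal tissue in the Hcn4 values was not tested. With 61 reads in saline mouse 10 and at most 264 in any library, Hcn4 was the member with the fewest reads.

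**Figure D2:**
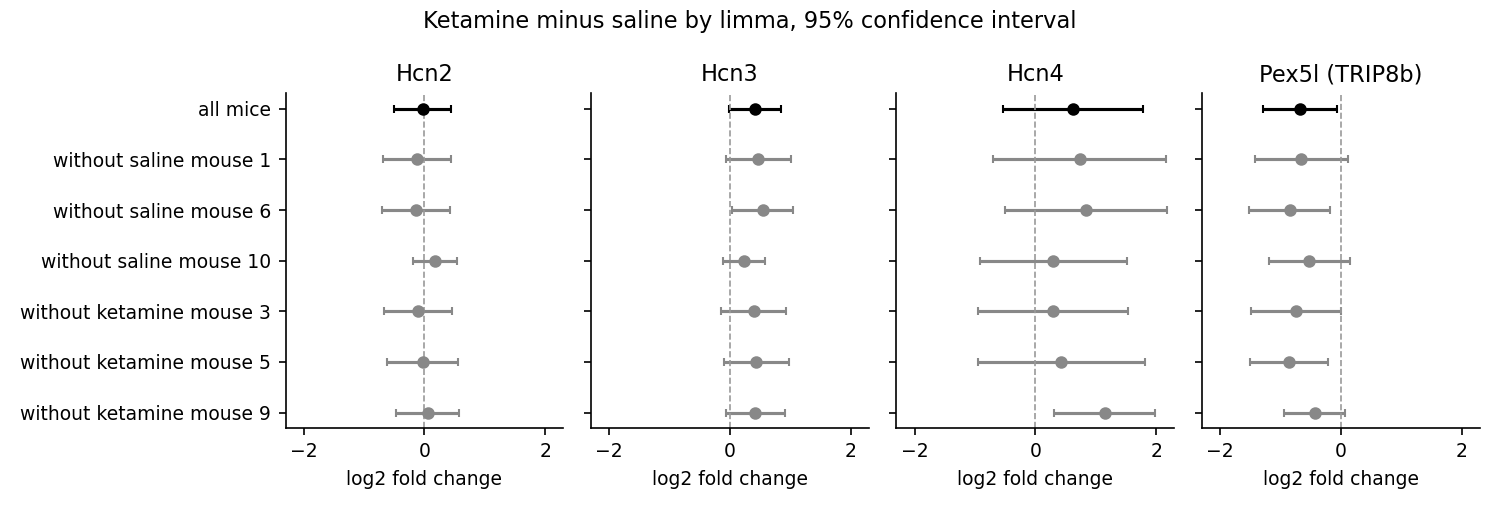
Log2 fold change, ketamine minus saline (x axis), of each member by limma with all mice (black) and after leaving out single mice (grey); horizontal bars are 95% confidence intervals and the dashed line is 0. The estimates for Hcn3 and Hcn4 stay above 0 and those for Pex5l below 0, with Hcn4 moving most, from 0.30 to 1.15.

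Ratios between members within a library do not depend on library scaling, and 3 were compared. The ratio of Hcn2 to Pex5l, per kilobase of exon, stood at 0.999, 1.30 and 1.27 for saline mice 1, 6 and 10, and at 1.89, 1.44 and 2.31 for mice 3, 5 and 9 given ketamine. Every ketamine mouse thus had more Hcn2 transcript per TRIP8b transcript than every saline mouse. The difference was 0.65 in the mean log2 ratio (p = 0.1 by a two-sided exact permutation test, which can give no smaller value here). Of single genes tested, 5.69% were higher and 4.66% lower in every ketamine mouse, and the share of other gene ratios that separate so was not computed. Leaving out single mice gave differences from 0.48 to 0.83, lowest without ketamine mouse 9. Within the ketamine group this ratio rose with the olfactory bulb score, 1.61 in mouse 5, 2.45 in mouse 3 and 4.43 in mouse 9. Saline mice 6 and 10 did not follow that order, with scores of -0.06 and 0.65. Cortical excitatory neuron markers scored -0.58 in ketamine mice 3 and 9 and -0.04 in mouse 5. The part of tissue composition in this ratio was not tested. The ratio of Hcn3 to Hcn2 was 0.119 ± 0.0121 in ketamine and 0.0926 ± 0.0366 in saline mice (SD, n = 3 each, exact permutation p = 0.4), with saline mouse 10 apart at 0.0509. Without that mouse the difference in log2 ratio shrank from 0.45 to 0.06. The ratio of Hcn4 to Hcn2 was 0.0359 ± 0.0157 in ketamine and 0.0236 ± 0.0120 in saline mice (SD, n = 3 each, exact permutation p = 0.5), and its difference in log2 ratio shrank from 0.65 to 0.12 without saline mouse 10. For both ratios to Hcn2 the groups overlapped. Adjusted over the 3 ratios by the method of Benjamini and Hochberg, the exact permutation p-values were 0.3 for Hcn2 to Pex5l and 0.5 for the other two.

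**Figure D3:**
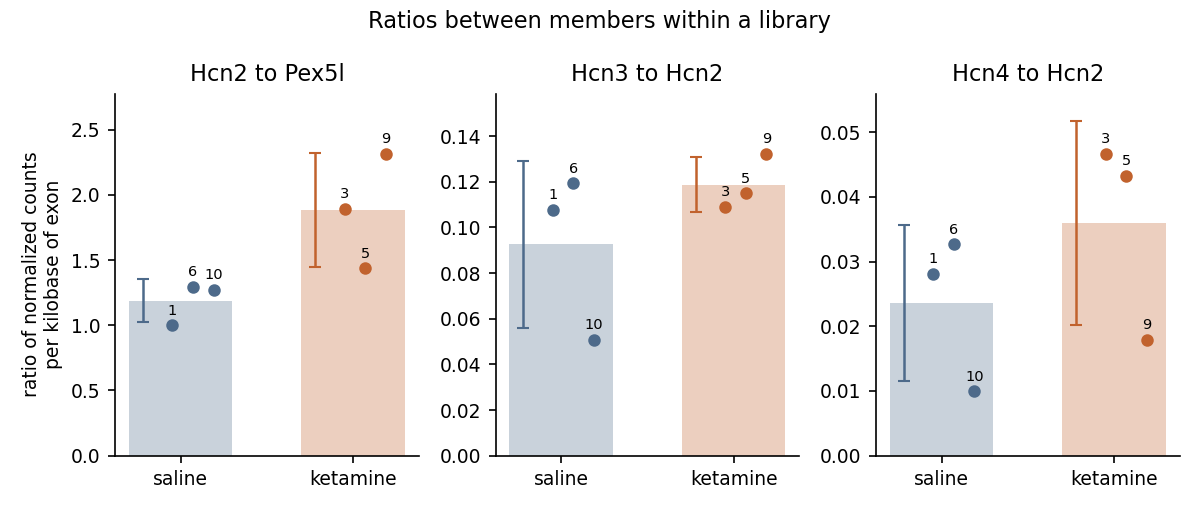
Ratio of normalized counts per kilobase of exon (y axis, from 0) between members in the same library, in saline and ketamine mice; points are mice with their numbers, bars are means and error bars are SD (n = 3 each). Hcn2 to Pex5l is at most 1.30 in saline mice and at least 1.44 in ketamine mice, and saline mouse 10 is the lowest for both ratios to Hcn2.

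The members did not share a pattern over the 6 mice. The root-mean-square difference between the log2 profiles of a pair of members, each taken relative to its own mean, was smallest for Hcn2 and Pex5l at 0.40 and largest for Hcn4 and Pex5l at 0.88. The genes nearest to each member by this measure, among all those tested, are given as a description. Those nearest to Pex5l were Rapgef4 (0.06), Hunk (0.12) and Epha7 (0.12). Rapgef4 encodes EPAC2, an exchange factor that is itself activated by cAMP, and it counted 18761, 14686 and 20992 (normalized) for saline mice 1, 6 and 10, and 12776, 13778 and 8462 for mice 3, 5 and 9 given ketamine. Those nearest to Hcn4 were Gnal (0.16), Pdyn (0.18) and D430036J16Rik (0.18). Gnal, which encodes the G protein that couples striatal receptors to adenylyl cyclase, is on the striatal marker list, and Pdyn encodes prodynorphin. Those nearest to Hcn2 were Llgl1, Entpd5 and Ssfa2 (0.04, 0.04 and 0.05), and those nearest to Hcn3 were Ankrd6, BC005764 and Fam92b (0.04, 0.05 and 0.07).

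**Figure D4:**
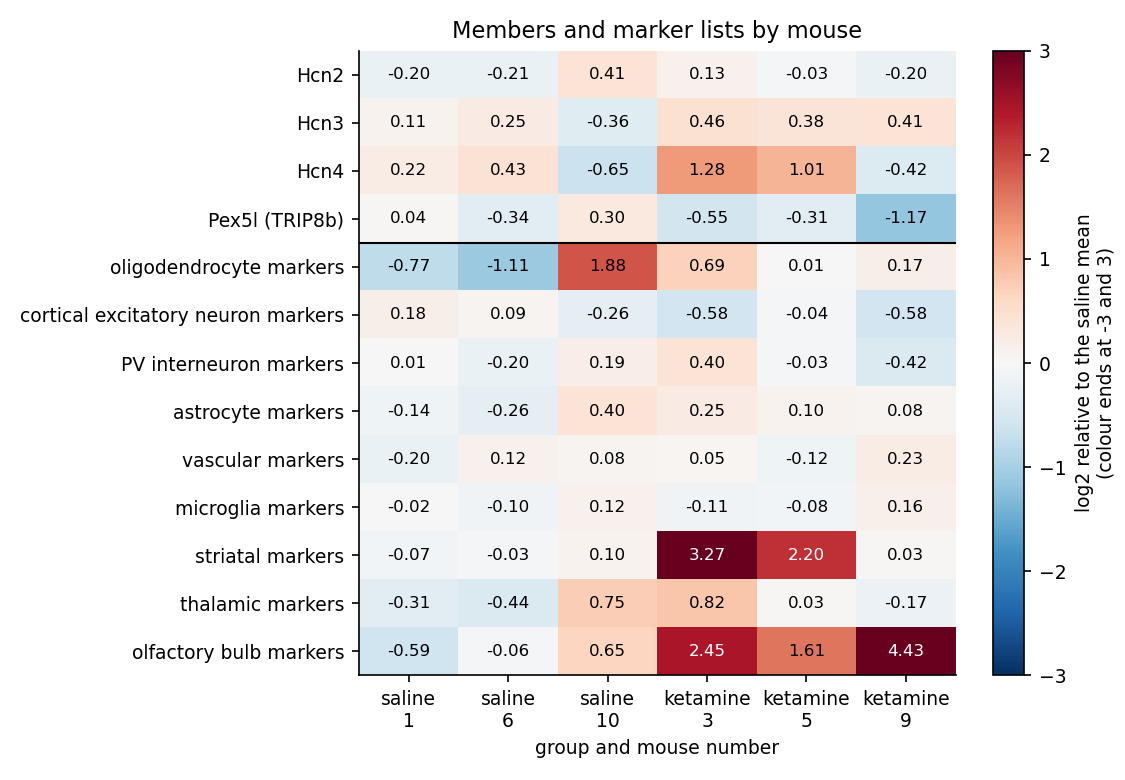
Log2 level of each member (above the line) and score of each marker list (below it) in each mouse, set against the saline average; colour and printed values give the same quantity, and the colour scale ends at -3 and 3. Hcn4 is highest in ketamine mice 3 and 5, where striatal markers score 3.27 and 2.20. Hcn2 is highest in saline mouse 10, where oligodendrocyte markers score 1.88 and astrocyte markers 0.40.

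Of 22 listed partners and regulators of HCN channels, 19 beside Pex5l passed the filter, and none was called. Of these, 3 were higher and 16 lower, and their median log2 fold change of -0.10 stood beside a median of -0.01 over all genes tested, of which 47.0% were higher. The smallest p-values were those of Lrmp and Apba2. Lrmp, whose protein binds HCN4, ranged from 25.9 to 63.7 normalized counts after saline and from 62.5 to 94.1 after ketamine (log2 fold change 1.09, adjusted p = 0.745 by limma). Apba2, the gene of the adaptor Mint2, had a log2 fold change of -0.47 (adjusted p = 0.865 by limma). Kctd3 and Src, named after their values were seen, were the only genes of the list with every ketamine mouse below every saline mouse, 2 of 19 beside 4.66% of all genes tested. Kctd3, which encodes an accessory protein of HCN3, had between 2602 and 2942 normalized counts in saline and between 2078 and 2584 in ketamine mice, with a log2 fold change of -0.26 (adjusted p = 0.957 by limma). Rab8b, whose product binds TRIP8b, was also named after its value was seen and had a log2 fold change of -0.03, and the 5 subunit genes of the AP2 clathrin adaptor, another TRIP8b partner named in the same way, lay between -0.20 and -0.09.

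Among channels that carry a related cyclic nucleotide-binding domain, 10 of 14 were tested and 0 were called. Cngb1, a subunit of the channels of photoreceptors and olfactory neurons, and Kcnh2, which encodes the ERG potassium channel, had the smallest p-values. Kcnh2 measured 1094, 979.6 and 945.5 normalized counts in the saline group and 1455, 1161 and 1316 in the ketamine group (log2 fold change 0.38, adjusted p = 0.776 by limma). Cngb1 was low in saline mice, at 2.87 to 8.79 normalized counts, and reached 53.8 in ketamine mouse 3, 32.0 in mouse 5 and 10.9 in mouse 9 (log2 fold change 2.20, adjusted p = 0.628 by limma). It passed the filter of 10 through its ketamine values, so its direction was set by the filter. The list median was -0.20, and its sign turned without ketamine mouse 9 (0.16) or without saline mouse 1 (0.09).

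The genes that set cAMP, the ligand of HCN channels, were listed as enzymes and receptors. Of 9 adenylyl cyclases tested, 2 were higher and 7 lower, with a median log2 fold change of -0.15. The cyclase list and the phosphodiesterase list each share 1 gene with the striatal markers, Adcy5 and Pde10a. Both were named after their values were seen, were among the higher genes and were highest in ketamine mouse 3. Adcy1, a calcium-stimulated cyclase, was below every saline mouse in each ketamine mouse, as were 4.66% of all genes tested. It had 13573, 22042 and 6676 normalized counts in mice 3, 5 and 9, whereas the saline values spanned 23038 to 29640 (log2 fold change -1.08, adjusted p = 0.784 by limma). Adcy8, named after its values were seen, was above every saline mouse in each ketamine mouse, as were 5.69% of all genes tested. Adcy9 had a log2 fold change of -1.09 (adjusted p = 0.999 by limma), which rested largely on the library of ketamine mouse 9. It had 301 normalized counts there, 1351 and 1801 in ketamine mice 3 and 5, and 1788 to 2206 in saline mice. Of 16 phosphodiesterases, which break down cAMP, 11 were higher and 5 lower, with a median of 0.06 that became -0.05 without ketamine mouse 3. Pde1c and Pde1b, calcium-stimulated members, had the smallest p-values, with log2 fold changes of 1.33 and 0.89 (adjusted p = 0.619 and 0.821 by limma), and both were highest in ketamine mouse 3, the mouse with the most striatal marker expression and the most Hcn4.

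Of 20 receptors coupled to cAMP, 11 were higher and 9 lower, 6 were above every saline mouse in each ketamine mouse (5.69% of all genes tested were), and DESeq2 called 4, all higher (1.13% of all genes), where limma called 0. The list median was 0.17, which fell to 0.02 without ketamine mouse 3 and turned to -0.08 when a mean of 100 normalized counts was required. The list shares 3 genes with the striatal markers. Adra2a, the receptor through which noradrenaline lowers cAMP in the prefrontal cortex, had a log2 fold change of 1.10 (adjusted p = 0.173 by limma, 4.7e-06 by DESeq2), and Vipr2, a receptor that raises cAMP, one of 2.81 (adjusted p = 0.311 by limma, 4.15e-05 by DESeq2). Adra2b and Adora2a, named after their values were seen, were the others called by DESeq2. Adra2b had only 1.92 to 3.29 normalized counts in saline mice and passed the filter of 10 through its ketamine values. Its direction was thus set by the filter, although it is counted among the 4 called and the 6 above every saline mouse. For Adora2a, ketamine mouse 3 gave 2395 normalized counts, mouse 5 gave 965 and mouse 9 gave 127, and for Adra2b they gave 94.95, 18.8 and 10.9, in the order of the striatal scores of these mice. Vipr2 came to 85.2, 114 and 359 in these mice, and was highest in ketamine mouse 9, where olfactory bulb markers also scored highest (4.43). Mice 3 and 5 did not follow that order, as olfactory bulb markers scored 2.45 in mouse 3 and 1.61 in mouse 5. The part of these regions in the receptor values was not tested. Of 19 other channels active near the resting potential, 6 were higher and 13 lower, and 0 were called by limma, edgeR or DESeq2. Their median of -0.19 became 0.11 without ketamine mouse 9 and -0.39 without ketamine mouse 5. Kcnj6 and Kcnj9, which encode G protein-gated potassium channels, had the smallest p-values of that list, with log2 fold changes of -0.98 and -0.47 (adjusted p = 0.922 and 0.999 by limma).

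**Figure D5:**
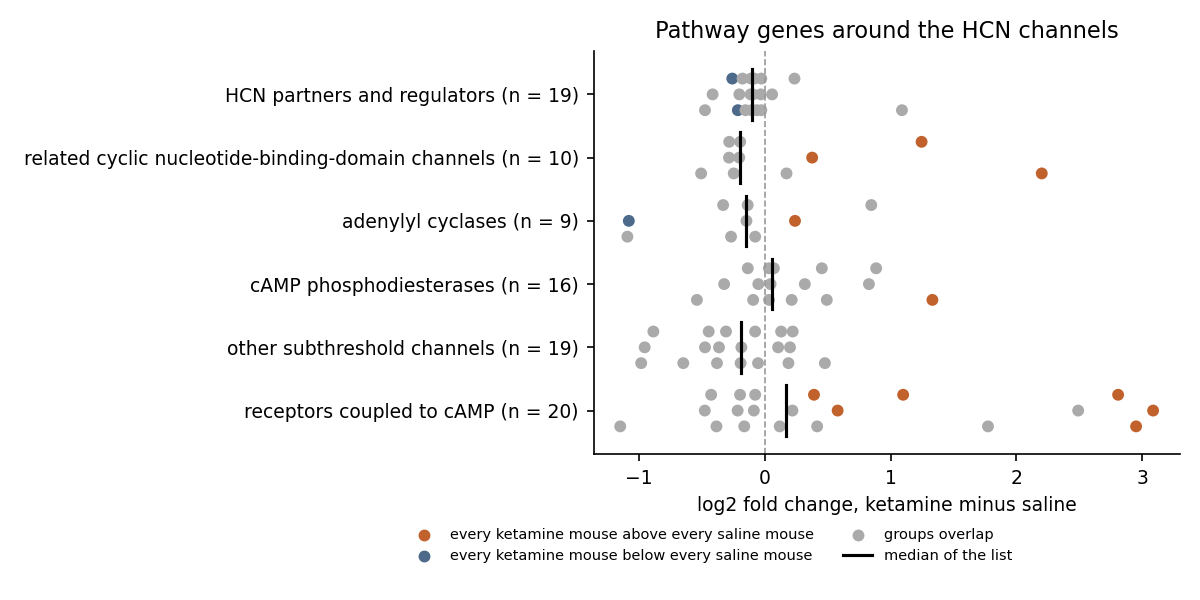
Log2 fold change, ketamine minus saline (x axis), of each tested gene in 6 lists around the HCN channels (y axis, with the number of genes); vertical bars are list medians, and colour marks genes whose groups do not overlap. The medians lie between -0.20 and 0.17, the sign of 4 of the 6 turns under some alternative, and the 6 coloured receptor genes are all above 0. Among these receptor genes, Adra2b passed the filter through its ketamine values.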

How the data were processed

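RNA of 6 mice was sequenced by the authors as 100 base paired-end reads, aligned to mm9 with Tophat 2.0.11, counted per gene with HTSeq and analysed with DESeq2. The values the authors deposited are a signal per gene, that is, read counts scaled by a library-specific size factor and kept to 2 decimals. Annotation and strand setting are not given in the sources used here. Dividing by the step of each library (0.906 to 1.10) gave whole reads for 100.0% of values, within the rounding. Columns were matched to samples by mouse number.

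The main test was limma 3.58.1 (R 4.3.3) with its trend option and Benjamini-Hochberg adjustment over 16127 genes. edgeR 4.0.16 and DESeq2 1.42.0 were run on recovered reads. Single values also had exact permutation tests over mice. Exon lengths came from GENCODE M1 (mm9), which held 37205 of the identifiers. Alternatives were other pseudocounts, filters and scalings, no trend, and each mouse left out. Named genes were the members, the 2 with the smallest limma p in each pathway list, and the 3 nearest to each member; others are marked as named after their values were seen. The members, although defined by symbol, and the lists were chosen with earlier results of these data known. HCN genes outside the members were not analysed here. Labels do not say whether mice were littermates or processed together, so p-values measure the spread between these animals.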

Additional observations from a re-analysis of the deposited data

How the results depend on the processing

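No member passed an adjusted p under 0.05 in any of the 15 alternatives. Hcn3, Hcn4, Pex5l and all 3 ratios kept their direction in each alternative run for them. Hcn2, near 0 throughout, turned to 0.17 without saline mouse 10 and 0.05 without ketamine mouse 9. With each mouse left out in turn, the log2 fold change ranged from -0.14 to 0.17 for Hcn2, 0.24 to 0.54 for Hcn3, 0.30 to 1.15 for Hcn4 and -0.86 to -0.43 for Pex5l. The number of genes called was 0 with limma, 182 with DESeq2, and 0 to 1 with each mouse left out. Medians of lists, recomputed after the data were seen, moved by more than the spread between mice in 1 of 225 cases, HCN partners without saline mouse 10 (-0.21, in a range up to -0.07 with other mice left out). Their sign turned in 18 of the 225, in 4 of 6 pathway lists and 6 of 9 marker lists, and oligodendrocyte markers went from 0.295 to -0.34 with edgeR and -0.35 with DESeq2. No paired analysis was possible because the mouse numbers differ between the groups. Groups of 3 mice and, for Hcn4, low read numbers limit the precision.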
